A study of Mus musculus with 27 samples.

Results

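Freshly isolated fetal liver cells without Rb1 were compared with wild-type cells, before any time in culture. The comparison takes 8 of the 27 arrays of the series, chosen by their titles alone: 5 labelled Rb1 KO at 0 h (Rb1KO) and 3 labelled wild type at 0 h (WT). All came from mouse livers of embryonic day 14.5 and were untreated. The other 0 h arrays were 2 with p107 knocked out (p107KO; p107 is encoded by Rbl1) and 2 with both genes knocked out (DKO), and they serve below as a second look at loss of Rb1. Total RNA was labelled with biotin and hybridized to an Affymetrix array, and each gene is given as a MAS5 signal, a brightness on a linear scale. Strain, allele, litter and any pooling of embryos were not given in the sources used here, and nothing says that arrays of a group came from different animals. The p-values therefore reflect only the spread between arrays of a group, which may be technical. That spread was pooled over all 27 arrays of the series, cultured ones included.

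RB1 is a pocket protein: it binds E2F transcription factors and keeps genes of the S phase off until cyclin-dependent kinases phosphorylate it. At this stage the fetal liver is the main blood-forming organ, and most of its cells are erythroblasts, red cell precursors that divide, fill with hemoglobin and then leave the cell cycle. Mouse embryos without Rb1 are known for anemia and for red cell precursors that do not finish maturing.

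A globin gene and albumin were bright on every WT and Rb1KO array at 0 h. Whether the globin probe set also reads other beta globins was not tested. Signals are listed below in replicate order, WT before Rb1KO. The embryonic globin Hbb-y gave 35068, 36373 and 44544.5 in WT and 41539.5, 46196, 46852, 34602 and 43381 in Rb1KO, and albumin (Alb), made by hepatocytes, gave 33622.5, 33717 and 41502 and 43385, 46739, 46477, 32717 and 40455. The array of Rb1KO replicate 5 stood somewhat apart: its median correlation across genes with the other 0 h arrays was 0.967, against 0.974 to 0.980 for the other 7. Signal of the Y-linked gene Eif2s3y was above 100 in Rb1KO replicate 3 (762.5) and in no WT array. Of the 0 h arrays, 1 of 5 Rb1KO, 0 of 3 WT, 1 of 2 p107KO and 2 of 2 DKO carried it.

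The targeted gene was low in every array labelled as lacking it. The brighter Rb1 probe set gave 6144, 6579 and 7105 in WT and 2235.5, 1931, 1507, 2047 and 2825 in Rb1KO. All 5 Rb1KO arrays lay below all 3 WT arrays, which left Rb1 3.16-fold lower but not at 0 (log2 -1.66 ± 0.18 SE, limma adjusted p = 1.17e-05). A second, dim Rb1 probe set ran from 4.4 to 41.4 in WT and from 8.2 to 85.0 in Rb1KO. The labels do not say which exons were targeted, so residual signal cannot be placed. Of the related pocket proteins, Rbl1 gave 1571, 1541 and 1745.5 in WT and 3502, 1837, 1689.7, 1517.5 and 2174 in Rb1KO, of which replicate 1 was the highest, and the groups overlapped (log2 0.33 ± 0.20 SE, limma adjusted p = 0.827). Rbl2, which encodes p130, was at 443 ± 55.8 (SD, n = 3) and 451 ± 84.4 (SD, n = 5) (log2 0.01 ± 0.25 SE, limma adjusted p = 0.996), and its sign turned under 7 of the 19 alternatives.

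Few genes passed the test, and nearly all of those were higher without Rb1. Of 10916 genes tested, 67 passed (0.614%): 59 were higher in Rb1KO (0.54%) and 8 lower (0.0733%), with 734 at an unadjusted p under 0.05. The rises were 2-fold or more for 22 genes and the falls for 4. The 5 Rb1KO arrays all lay above the 3 WT arrays for 58 of the 59 higher genes and below them for 7 of the 8 lower genes, against 3.5% and 3.02% of all tested genes. Because the test that picked the 67 genes used the same arrays, such separation follows largely from the choice and is no added evidence. Overlap remained in the folate enzyme Mthfd2 and in Rsad2. The test was limma's moderated test with Benjamini-Hochberg adjustment over all tested genes, at 0.05, on log2(signal + 32), a scale that understates changes of dim genes. The median gene moved by -0.043 on the log2 scale.

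**Figure D1:**
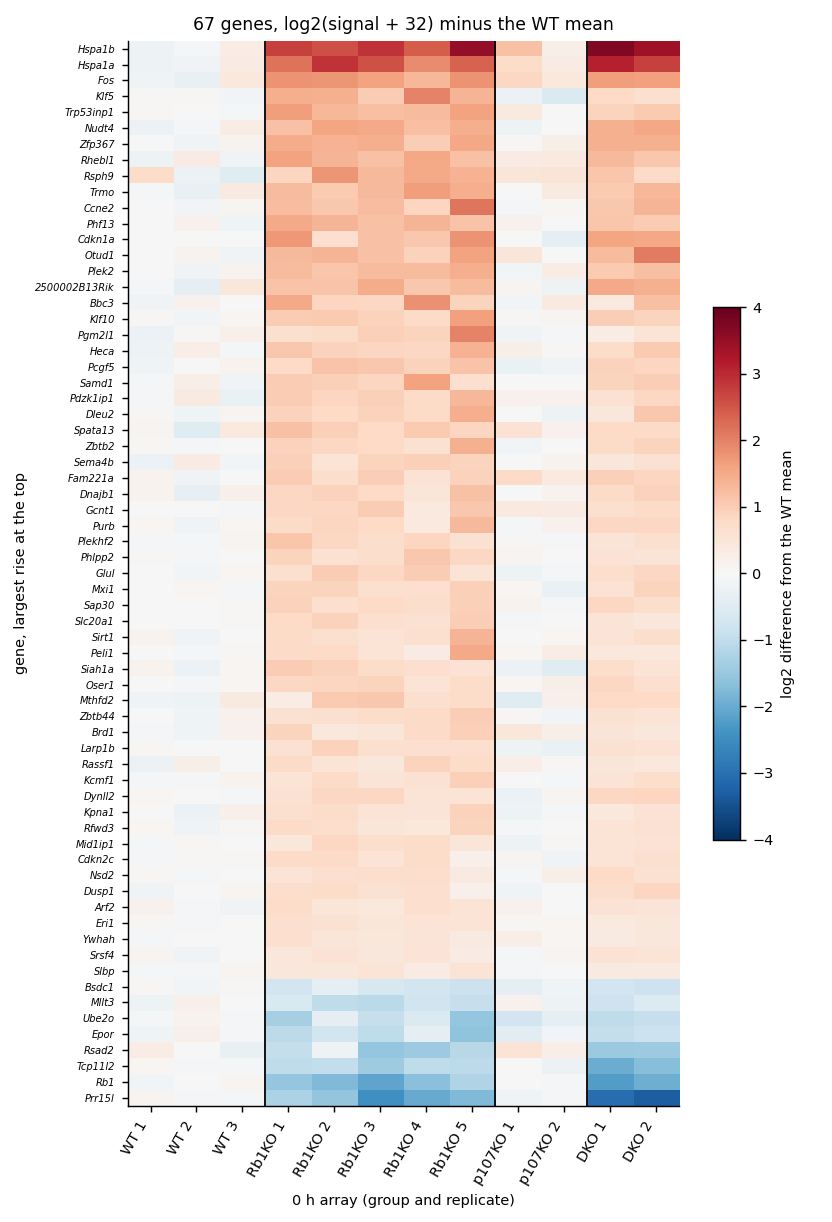
Each row is 1 of the 67 genes and each column an array at 0 h; colour is log2(signal + 32) minus the mean of the 3 WT arrays. The 59 higher genes are mostly red in the 5 Rb1KO and 2 DKO arrays, with medians of 0.77 to 0.97 in Rb1KO and 0.73 and 0.81 in DKO, while the p107KO arrays stay near the WT mean, with medians of 0.030 and 0.042.

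The 59 genes were chosen by a test on these same arrays, so their level in each array is a description. Measured from the WT mean, their median was 0.90, 0.86, 0.82, 0.77 and 0.97 on the log2 scale in replicates 1 to 5. Replicate 5 was the highest of the 5 arrays for 28 of the 59 genes and replicate 4 the lowest for 22. The count of 67 became 26 without WT replicate 1, 26 without WT replicate 2 and 38 without WT replicate 3, and 50, 56, 49, 61 and 53 without Rb1KO replicates 1 to 5. It was 27 when all arrays of the series with Y-linked signal were left out, cultured, p107KO and DKO arrays included. Of the 8 compared arrays only Rb1KO replicate 3 was among them, and without that array alone the count was 49. Over all 8 arrays left out in turn, 23 of the 67 genes passed each time. Over all 19 alternatives (other added constants, filters, scalings, probe set choice, weights, blocks and arrays) the 67 genes kept their direction wherever they were tested, and 16 of them passed in every one: Hspa1a, Hspa1b, Fos, Trp53inp1, Ccne2, Zfp367, Klf10, Mxi1, Nudt4, Otud1, Pcgf5, Phf13, Plek2, Rhebl1, Heca and Tcp11l2.

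**Figure D2:**
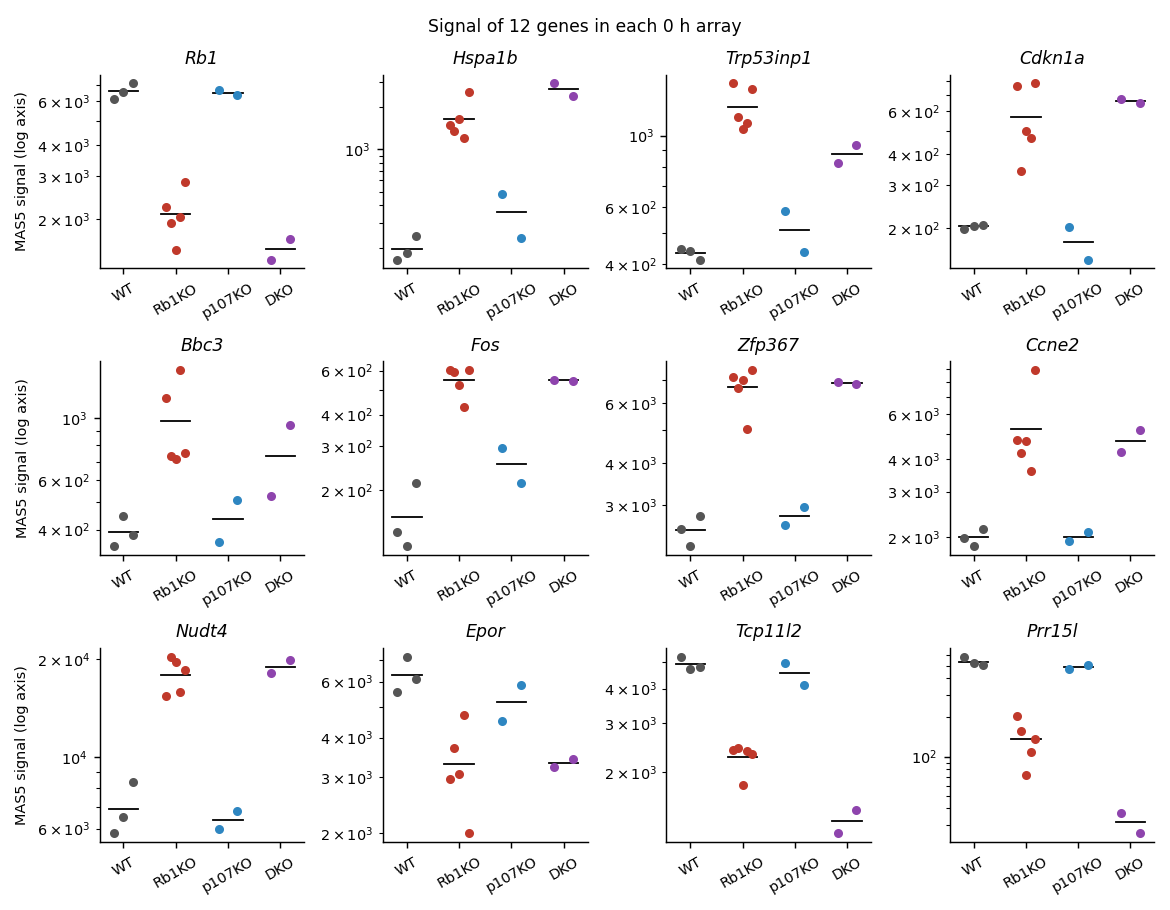
Points are the MAS5 signal (log axis) of 12 genes in each 0 h array, by group, and the bars are group means. For each of the 12 genes the 5 Rb1KO arrays lie apart from the 3 WT arrays: 8 are higher in Rb1KO and Rb1, Epor, Tcp11l2 and Prr15l are lower.

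The inducible HSP70 genes gave the largest rises of the 59. Hspa1a and Hspa1b, which encode the stress-inducible form of the HSP70 chaperone, lie side by side and are almost the same sequence, so signal on one may come partly from the other and each value alone is uncertain. Their upstream sequences are shown because they differ at only 3 of 250 positions and hold the same heat shock element. The 250 bases before the RefSeq start are given 5′ to 3′ (GRCm38.p6, minus strand), chr17:34959239-34959488 for Hspa1b and chr17:34972157-34972406 for Hspa1a, with capitals marking the 8-base match.
Hspa1b: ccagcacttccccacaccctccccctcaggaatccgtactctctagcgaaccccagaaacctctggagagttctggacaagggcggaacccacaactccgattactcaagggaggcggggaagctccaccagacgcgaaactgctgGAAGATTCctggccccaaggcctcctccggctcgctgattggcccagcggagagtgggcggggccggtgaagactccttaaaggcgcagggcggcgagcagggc
Hspa1a: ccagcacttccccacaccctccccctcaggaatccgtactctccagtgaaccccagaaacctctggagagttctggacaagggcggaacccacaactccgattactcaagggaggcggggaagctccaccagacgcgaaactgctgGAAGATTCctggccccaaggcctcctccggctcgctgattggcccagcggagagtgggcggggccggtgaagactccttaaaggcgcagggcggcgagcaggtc

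Hspa1b gave 165, 183 and 244 in WT and 1494, 1334.5, 1642, 1190.2 and 2560.3 in Rb1KO, a rise of 7.12-fold (log2 2.83 ± 0.25 SE, limma adjusted p = 1.59e-06). No Rb1KO array came near the WT range. The other 2 Hspa1b probe sets were higher too, at means going from 78.4 ± 12.5 (SD, n = 3) to 562 ± 156 (SD, n = 5) and from 119 ± 84.4 (SD, n = 3) to 834.5 ± 188 (SD, n = 5). Hspa1a gave 91.4, 97.8 and 149 in WT and 613, 1031, 802, 491 and 699 in Rb1KO, 5.18-fold higher (log2 2.37 ± 0.26 SE, limma adjusted p = 1.17e-05). Dnajb1, an HSP40 co-chaperone that delivers clients to HSP70, gave 4425, 3201.5 and 4675 and 7165, 7713, 7058, 5668 and 9179.6, 1.79-fold higher (log2 0.84 ± 0.18 SE, limma adjusted p = 0.0211). It passed in 11 of 19 alternatives and in 4 of 8 that left out an array.

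Most other chaperones did not pass. This gene list and all those below were chosen with earlier results of these data known. Their shares beside that of all genes are therefore descriptions and no evidence of enrichment. Of 19 tested heat shock chaperones, 3 rose (0.54% of all genes did), 0 fell and 15 were above 0, with a median log2 difference of 0.16 against -0.043 for all genes. Hsp90aa1, the inducible HSP90, gave 0.44 ± 0.17 SE (limma adjusted p = 0.573) and Hspa4l 0.46 ± 0.14 SE (limma adjusted p = 0.264), and neither passed.

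Genes induced by p53, the transcription factor of the DNA damage response, were also among the higher genes. Trp53inp1, a p53 target that promotes cell death and autophagy, gave 445, 440.2 and 414 in WT and 1449, 1141.5, 1048, 1096 and 1389 in Rb1KO, 2.68-fold higher (log2 1.42 ± 0.15 SE, limma adjusted p = 1.17e-05). Its second probe set went from 40.1 ± 29.9 (SD, n = 3) to 129 ± 22.7 (SD, n = 5). Cdkn1a, the cyclin-dependent kinase inhibitor p21, gave 198, 205 and 206.5 in WT and 758, 341, 498, 466 and 780.4 in Rb1KO, 2.45-fold higher (log2 1.29 ± 0.21 SE, limma adjusted p = 0.00182). Its Rb1KO arrays varied more than 2-fold among themselves, yet the lowest still lay above all WT arrays. Bbc3, the BH3-only cell death protein PUMA, gave 348.5, 448 and 383 and 1183, 732.5, 716, 1483 and 753, 2.27-fold higher (log2 1.19 ± 0.21 SE, limma adjusted p = 0.00568), and passed in 7 of 8 tests that left out an array.

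These 3 were the members of the 30 tested p53 target genes to pass, against 0.54% of all genes that rose, and 0 fell. As the list was chosen with earlier results known, this share is only a description. The median of the list was 0.13 and 20 of 30 values were above 0. Ccng1, cyclin G1, gave 770.2, 719 and 895 and 1036, 1187, 1250.4, 1109 and 1325.5, and its difference of 0.55 ± 0.18 (SE) did not pass (limma adjusted p = 0.3). The translesion polymerase Polk gave 0.64 ± 0.18 SE (limma adjusted p = 0.194). Of 15 tested BCL2 family genes only Bbc3 passed, with a list median of -0.072.

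Among the higher genes outside that list were several with known links to p53 or to tumour suppression. Siah1a, a ubiquitin ligase inducible by p53, gave 1516, 1178 and 1476 in WT and 2811, 2657.5, 2328, 2213 and 2061 in Rb1KO (log2 0.78 ± 0.15 SE, limma adjusted p = 0.0134). Rfwd3, a ubiquitin ligase that works at stalled replication forks, rose 1.57-fold (log2 0.65 ± 0.13 SE, limma adjusted p = 0.0138). The deacetylase Sirt1 rose 1.73-fold (limma adjusted p = 0.0265) and the tumour suppressor Rassf1 1.6-fold (limma adjusted p = 0.0189). These 4 were picked for their known roles after their values were seen.

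Of the 7 tested cyclin-dependent kinase inhibitors 2 rose, against 0.54% of all genes, and 0 fell, with a median of 0.38. Besides Cdkn1a, this was Cdkn2c, the INK4 protein p18, with 2600.0, 2885.5 and 2849 in WT and 4790.0, 4769.8, 4088, 4688 and 3179.5 in Rb1KO, 1.53-fold higher (log2 0.61 ± 0.14 SE, limma adjusted p = 0.0445). Replicate 5 lay closest to the WT range, and Cdkn2c passed in 7 of 19 alternatives. Cdkn1b, the inhibitor p27, gave 2622, 2422 and 2496 and 2508, 4005.5, 3693, 4993.5 and 3704: 4 arrays were above WT and replicate 1 was inside its range (log2 0.55 ± 0.17 SE, limma adjusted p = 0.264).

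Of the E2F-regulated genes Zfp367, Ccne2 and Slbp rose. In the list of G1/S and replication genes these were 3 of 56 tested, against 0.54% of all genes, and 0 fell. The median log2 difference was 0.18, with 40 of 56 above 0. The groups did not overlap for 11 of the 56, all higher in Rb1KO, against 3.5% of all genes. Zfp367, a zinc finger protein and E2F target, gave 2554, 2273 and 2796 in WT and 7149, 6659.9, 7029, 5013.5 and 7487 in Rb1KO, 2.59-fold higher (log2 1.37 ± 0.15 SE, limma adjusted p = 1.17e-05). Its second probe set went from 229 ± 44.1 (SD, n = 3) to 477.5 ± 145 (SD, n = 5). Ccne2, cyclin E2, the partner of CDK2 at entry into the S phase, gave 1984, 1839 and 2153 and 4756, 4246, 4709, 3605 and 8865, 2.48-fold higher (log2 1.31 ± 0.21 SE, limma adjusted p = 0.00187). Its highest value came from replicate 5.

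The stretch before the Zfp367 start is shown because it is 1 of 3 windows with an E2F match among the higher genes. It lies at chr13:64153200-64153449 (GRCm38.p6, minus strand, 250 bases before the RefSeq start), with the match GCGCGAAA, the reverse complement of TTTCGCGC, in capitals.
Zfp367: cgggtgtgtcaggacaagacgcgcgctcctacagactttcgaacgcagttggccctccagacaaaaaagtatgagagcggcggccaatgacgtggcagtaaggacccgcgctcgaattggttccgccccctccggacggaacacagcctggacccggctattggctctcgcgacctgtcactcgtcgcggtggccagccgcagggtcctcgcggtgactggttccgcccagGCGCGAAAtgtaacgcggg

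The third gene of the list was Slbp, which binds the stem-loop of histone messages and is needed for their processing. It gave 14554, 14436 and 16117 in WT and 20580.0, 20645, 21856, 18751 and 22013 in Rb1KO, 1.38-fold higher (log2 0.46 ± 0.11 SE, limma adjusted p = 0.0479), and passed in only 4 of 19 alternatives. Eri1, an exonuclease that trims the same histone stem-loop and was picked after its value was seen, gave 2025, 1858 and 1970.5 and 3028, 2988, 2757.5, 2844.5 and 2878, 1.48-fold higher (log2 0.56 ± 0.11 SE, limma adjusted p = 0.0144). Clspn, a checkpoint mediator at replication forks, gave 3342, 3178 and 3532 and 4864, 5247, 4594, 4713 and 5064, groups that did not overlap, and missed the threshold (log2 0.54 ± 0.13 SE, limma adjusted p = 0.0619). E2f7, a repressor of the E2F family, gave 0.52 ± 0.14 SE (limma adjusted p = 0.159).

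Of 55 tested genes of G2/M and mitosis 0 passed in limma and 15 had an unadjusted p under 0.05. The differences were above 0 for 50 of 55, with a median of 0.22, against 42.0% of all genes. Prc1, which bundles the central spindle, gave 4461, 4465 and 4667 in WT and 6004.5, 6000.1, 5077, 6526 and 7469 in Rb1KO (log2 0.44 ± 0.12 SE, limma adjusted p = 0.14). Mki67, the proliferation marker Ki-67, gave 10754, 10103 and 13047 and 14027, 16995, 13934, 14351 and 24591 (log2 0.54 ± 0.17 SE, limma adjusted p = 0.275), its highest value again in replicate 5. The summed signal of the list ran from 286027 to 320370 in WT and from 328792 to 397006 in Rb1KO, without overlap. Of 26 DNA damage repair genes 0 passed in limma, 0 at an unadjusted p under 0.05, with a median of 0.037. Of 17 histone supply genes Slbp alone passed, with a median of 0.16, and of 28 pocket proteins and partners Ccne2 rose and Rb1 fell, with a median of 0.20.

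Immediate early genes, which respond within minutes to growth factors and stress, were led by Fos. This subunit of AP-1 gave 136, 119 and 213 in WT and 601, 593, 524, 428 and 602 in Rb1KO, 3.14-fold higher (log2 1.65 ± 0.24 SE, limma adjusted p = 0.000417). Dusp1, a phosphatase that switches off MAP kinases, gave 4253, 4733 and 5059.7 and 7646, 7737.5, 7146.5, 7453 and 5404, 1.5-fold higher (log2 0.58 ± 0.13 SE, limma adjusted p = 0.0366), and passed in 1 of 8 tests that left out an array. These were 2 of 22 tested immediate early genes, against 0.54% of all genes, with 0 lower and a median of 0.15. Socs3, a feedback inhibitor of cytokine receptors, gave 508, 596 and 575 and 1582, 901, 928, 887 and 1844 without overlap and just missed the threshold (log2 1.02 ± 0.24 SE, limma adjusted p = 0.0535). The Krüppel-like factors Klf5 and Klf10 rose as well. Klf5 gave 228.5, 224 and 202 in WT and 647, 642, 476, 959 and 605 in Rb1KO, 2.72-fold higher (log2 1.45 ± 0.20 SE, limma adjusted p = 0.000351). Klf10, inducible by TGF-beta, rose 2.11-fold (log2 1.08 ± 0.16 SE, limma adjusted p = 0.000776).

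**Figure D3:**
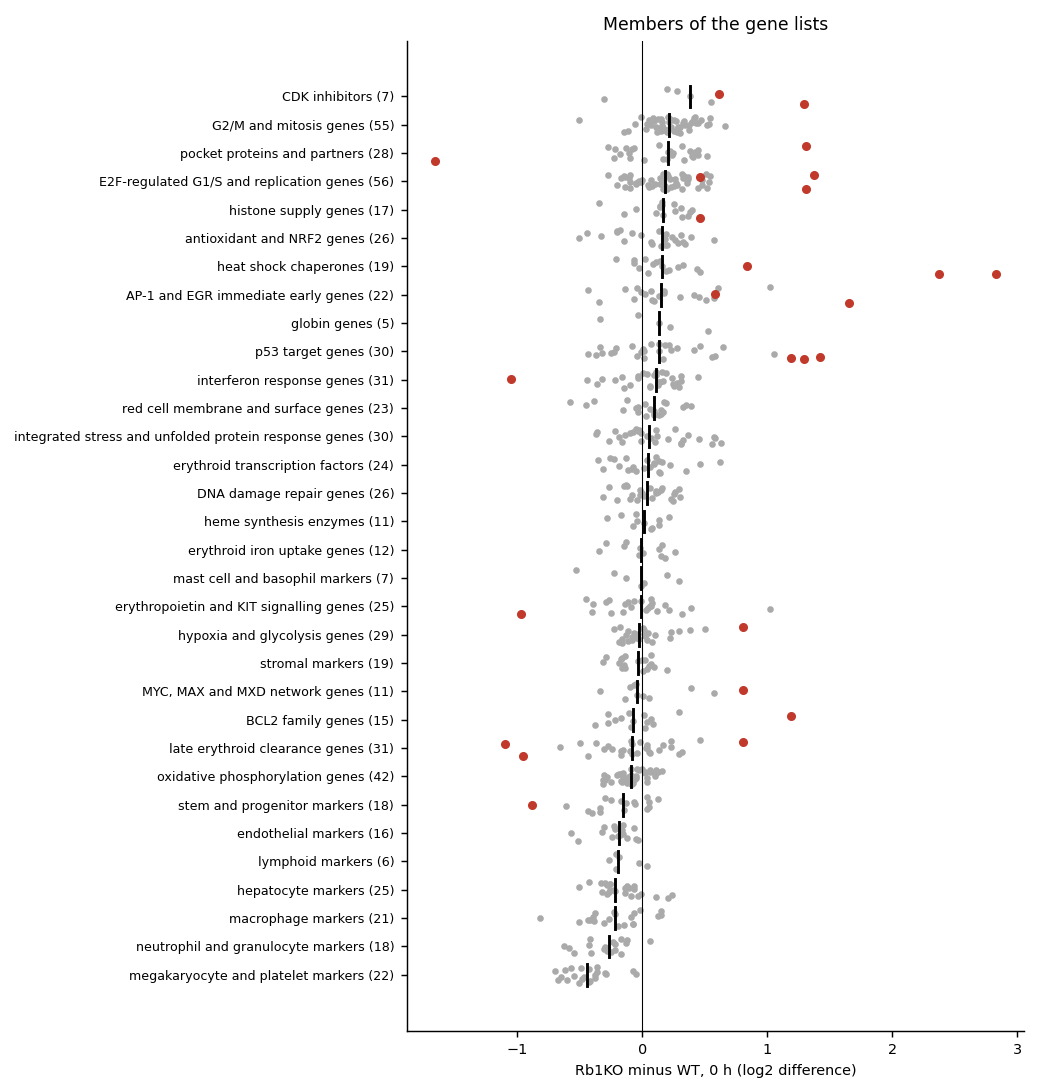
Each point is a gene of a list, placed by its log2 difference between Rb1KO and WT at 0 h; red points passed the test, bars are list medians and the number of genes tested follows each name. Medians run from -0.45 for megakaryocyte and platelet markers to 0.38 for cyclin-dependent kinase inhibitors, and most lists hold no red point.

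Among the other higher genes were transcriptional regulators, here grouped by known role after their values were seen and with no enrichment tested. Mxi1, a MYC antagonist that pairs with MAX, gave 3297, 3496 and 3080.5 in WT and 6173, 6060.4, 5112, 5293 and 6324.5 in Rb1KO, 1.75-fold higher (log2 0.81 ± 0.13 SE, limma adjusted p = 0.00182). It was the only one of 11 tested genes of the MYC, MAX and MXD network to pass. Sap30, a subunit of the SIN3 corepressor that MXI1 recruits, gave 1549.9, 1568 and 1629.6 and 2999, 2563, 2758, 2579 and 3075, 1.75-fold higher (log2 0.80 ± 0.14 SE, limma adjusted p = 0.00253). The Polycomb subunit Pcgf5 rose 2.02-fold (log2 1.02 ± 0.13 SE, limma adjusted p = 6.09e-05) and the chromatin-binding PHD finger protein Phf13 2.46-fold (log2 1.30 ± 0.16 SE, limma adjusted p = 4.88e-05). Samd1, which binds unmethylated CpG islands, rose 2.02-fold, the H3K36 methyltransferase Nsd2 1.51-fold, and Brd1, a scaffold of histone acetyltransferases, 1.64-fold. The zinc finger proteins Zbtb2 (1.88-fold) and Zbtb44 (1.67-fold) and the purine-rich element binding protein Purb (1.77-fold) completed the group. Some further probe sets of Brd1, Zbtb44 and Purb did not follow. A second Brd1 probe set was at 307 ± 53.7 (SD, n = 3) in WT and 251 ± 94.8 (SD, n = 5) in Rb1KO, and a second Zbtb44 probe set at 691 ± 177 and 828.6 ± 318. For Purb, 1 further probe set was at 669 ± 184 and 701 ± 298 and another at 1624 ± 249 and 1804 ± 600.4, while 1 more was at 1086 ± 165 and 1592 ± 440.5. Of 72 further probe sets for 41 of the 67 genes, 67 had the sign of the probe set used, as did 32 of the 33 above the signal of the median gene.

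Further genes of the 59, of varied known roles, were grouped after their values were seen, with no enrichment tested. The deubiquitinase Otud1 gave 163, 185 and 145 in WT and 446, 474, 409.9, 342 and 569 in Rb1KO, 2.43-fold higher (log2 1.28 ± 0.19 SE, limma adjusted p = 0.000466). Plek2, pleckstrin-2, which organizes actin in erythroblasts, gave 1522, 1379.9 and 1687 and 3675, 3315, 3721, 3677 and 4253, 2.41-fold higher (log2 1.27 ± 0.17 SE, limma adjusted p = 0.000218). Rhebl1, a small GTPase related to the mTORC1 activator RHEB, gave 183, 277 and 190.3 and 715, 602, 523, 682.5 and 515, 2.59-fold higher (log2 1.37 ± 0.17 SE, limma adjusted p = 6.09e-05). Smaller rises were those of Heca (2.03-fold), Spata13 (1.95-fold), Sema4b (1.8-fold), Plekhf2 (1.76-fold), Phlpp2, a phosphatase of AKT (1.76-fold), the ubiquitin ligases Peli1 (1.73-fold) and Kcmf1 (1.6-fold), and Oser1 (1.71-fold). The dynein light chain Dynll2 (1.59-fold), the importin Kpna1 (1.59-fold), the small GTPase Arf2 (1.48-fold) and the 14-3-3 protein Ywhah (1.41-fold) rose by less again. A second Heca probe set differed less, at 1283 ± 46.7 (SD, n = 3) in WT and 1579.96 ± 246 (SD, n = 5) in Rb1KO. Arf2 passed in 4 of 19 alternatives and in 0 of the 8 that left out an array.

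Several enzymes and transporters rose, again grouped after their values were seen. Nudt4, a hydrolase of inositol pyrophosphates and one of the brightest genes of the 59, gave 5807.5, 6506 and 8377 in WT and 15410.1, 20336.5, 19678, 15835 and 18549.5 in Rb1KO, 2.61-fold higher (log2 1.38 ± 0.19 SE, limma adjusted p = 0.000226). Slc20a1, a phosphate importer, gave 11231, 11178 and 11615 and 19696.5, 21469, 17998, 17479.7 and 22285, 1.73-fold higher (log2 0.79 ± 0.15 SE, limma adjusted p = 0.00659). Glutamine synthetase (Glul) rose 1.75-fold (log2 0.81 ± 0.13 SE, limma adjusted p = 0.00182) on the probe set used, but a second one was at 3828 ± 861 (SD, n = 3) in WT and 4104 ± 626 (SD, n = 5) in Rb1KO. Trmo, a tRNA methyltransferase, rose 2.55-fold, Pgm2l1, which makes glucose 1,6-bisphosphate, 2.05-fold, Mthfd2 1.7-fold, the lipogenesis regulator Mid1ip1 1.56-fold and the glycosyltransferase Gcnt1 1.78-fold. Mthfd2 gave 2954, 2871 and 4185 and 4059, 6831, 6928.5, 5175 and 5548, so that WT replicate 3 lay above Rb1KO replicate 1. The rest of the 59, apart from Dleu2 below, were Rsph9 (2.58-fold), 2500002B13Rik (2.34-fold), Pdzk1ip1 (1.98-fold), Fam221a (1.79-fold), Larp1b (1.63-fold) and the splicing factor Srsf4 (1.39-fold). Rsph9, a protein of ciliary radial spokes, was dim, at 54.7, 13 and 5.3 in WT and 64, 147, 95.9, 119.9 and 105.5 in Rb1KO, so its fold depends on the added 32. Pdzk1ip1 passed in 5 of 19 alternatives and in 0 of the 8 that left out an array.

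The erythropoietin receptor and 2 genes of a late erythroid clearance list were among the 8 that fell. That list, like the others, was chosen with earlier results of these data known, so membership in it is only a description. Epor, the receptor for erythropoietin on which erythroblasts depend for survival, gave 5554, 7166.5 and 6100.2 in WT and 2974.5, 3723, 3076.5, 4701 and 2002 in Rb1KO, 1.96-fold lower (log2 -0.97 ± 0.20 SE, limma adjusted p = 0.0211). No array overlapped, but Epor passed in only 3 of 8 tests that left out an array. Ube2o, the ubiquitin-conjugating enzyme that remodels the proteome of reticulocytes, gave 4332, 5004 and 4252.5 and 1779, 3458, 2363.5, 3026 and 1516, 1.94-fold lower (log2 -0.95 ± 0.19 SE, limma adjusted p = 0.0144). Tcp11l2 gave 5195, 4713 and 4771 and 2403, 2454, 1805, 2380.3 and 2330.5, 2.15-fold lower (log2 -1.10 ± 0.14 SE, limma adjusted p = 7.23e-05), with a narrow spread in both groups.

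The other genes that fell were of mixed kinds. Prr15l gave 582, 521 and 508 in WT and 205, 157.5, 71.9, 109.5 and 136 in Rb1KO, 3.51-fold lower (log2 -1.81 ± 0.28 SE, limma adjusted p = 0.00108). Mllt3, a regulator of blood stem cell maintenance, gave 2183, 2937 and 2545 and 1655, 1233, 1194.5, 1441 and 1319, 1.85-fold lower (log2 -0.88 ± 0.19 SE, limma adjusted p = 0.0243), and passed in 3 of 8 tests that left out an array. Rsad2, the antiviral protein viperin, gave 6427, 5224 and 4199 and 2689, 4503, 1763, 1867 and 2413, and Rb1KO replicate 2 lay above WT replicate 3 (log2 -1.05 ± 0.23 SE, limma adjusted p = 0.0303). It was the only one of 31 tested interferon response genes to pass. Bsdc1 gave 6404, 5783 and 6438 and 3661, 4832, 3962, 3698 and 3403 (log2 -0.67 ± 0.15 SE, limma adjusted p = 0.0409), and passed in 1 of 8 such tests. The eighth was Rb1 itself.

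Epor was the only gene of its pathway list to pass. Of 25 tested genes of erythropoietin and KIT signalling, 1 fell, 0 rose and the median was -0.013. Pim1, a kinase gene induced by STAT5, gave 6229, 6241 and 6790.2 and 9177, 8422, 8417.5, 7438 and 8688, groups that did not overlap, short of the threshold (log2 0.39 ± 0.11 SE, limma adjusted p = 0.143). A second, dimmer Pim1 probe set rose more, from 1201 ± 42.0 (SD, n = 3) to 2157 ± 535 (SD, n = 5), a log2 difference of 0.79. Of 31 tested late erythroid clearance genes (autophagy, ubiquitin, enucleation), Tcp11l2 and Ube2o fell and Mxi1 rose, with a median of -0.081. Bpgm, which makes the hemoglobin ligand 2,3-bisphosphoglycerate, gave 10499, 10427 and 9637 and 6889.6, 7923.5, 6744, 7538 and 6977 without overlap, short of the threshold (log2 -0.50 ± 0.18 SE, limma adjusted p = 0.482). Its other probe sets fell somewhat more, from means of 7100 to 4448 (log2 -0.68) and from 6385 to 4289 (log2 -0.61). Ube2h, which acts with an E3 complex in late erythroblasts, gave 5437, 5025 and 5381 and 4242, 4179, 3231, 3655 and 4297 and missed the threshold too (log2 -0.43 ± 0.15 SE, limma adjusted p = 0.402).

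The tested genes of hemoglobin, iron and the red cell membrane gave no call. Only 5 of 10 listed globins were tested: Hbb-y, Hbb-bh1, Hba-x, Hbb-b2 and Hba-a2. Of these Hba-a2 was dim, at means of 159 in WT and 245 in Rb1KO, and the untested globins are not covered. In limma 0 passed of 5 tested globin genes, 11 enzymes of heme synthesis, 12 genes of iron uptake, 23 genes of a red cell membrane and surface list and 24 erythroid transcription factors, with medians of 0.14, 0.015, -0.0087, 0.090 and 0.047. At an unadjusted p under 0.05 the counts were 0, 0, 0, 3 and 3. Tal1, a master transcription factor of blood formation that stands in both of the last lists and is counted in both, gave 10928, 12822 and 12649 in WT and 16054, 14834, 13871, 16634 and 15726 in Rb1KO without overlap (log2 0.35 ± 0.14 SE, limma adjusted p = 0.575). The summed signal of the heme enzymes ran from 138790 to 162675 in WT and from 145453 to 167349 in Rb1KO. Of 42 oxidative phosphorylation genes 0 passed in limma, 1 at an unadjusted p under 0.05, with a median of -0.090. Of 29 hypoxia and glycolysis genes only Mxi1 passed, with a median of -0.029. Of 30 genes of the integrated stress and unfolded protein responses and 26 antioxidant genes under NRF2 0 passed in limma, 5 and 5 at an unadjusted p under 0.05, with medians of 0.052 and 0.16.

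Markers of megakaryocytes, neutrophils, endothelium, macrophages and hepatocytes had medians below that of all genes, and 0 of them passed in limma. In bulk tissue fewer cells of a type and less RNA per cell cannot be told apart. Of 22 tested megakaryocyte and platelet markers 22 were below 0, with a median of -0.45. In limma 0 of them passed and 10 had an unadjusted p under 0.05. Over all genes 42.0% were above 0. Their summed signal ran from 55424 to 68553 in WT and from 37386 to 57027 in Rb1KO. Gp1bb, a subunit of the von Willebrand factor receptor, gave 1138, 1851 and 1367 and 979.6, 999.6, 703.5, 792 and 959 (log2 -0.68 ± 0.21 SE, limma adjusted p = 0.254), and the integrin Itgb3 gave -0.60 ± 0.21 SE (limma adjusted p = 0.426). Of 18 neutrophil and granulocyte markers 17 were below 0 (median -0.27, summed signal 92769 to 123909 in WT and 73319 to 106631 in Rb1KO), of 16 endothelial markers 16 (median -0.19, 10236 to 11522 and 7715 to 10374), of 21 macrophage markers 18 (median -0.22, 68711 to 72383 and 59569 to 71737) and of 25 hepatocyte markers 22 (median -0.22, 325944 to 392645 and 290624 to 389330). In these 4 lists 0 genes passed in limma, with 1, 1, 1 and 0 at an unadjusted p under 0.05, and the summed signals of the groups overlapped, as they did for the megakaryocyte markers. The mean log2 level per array overlapped too in these 4 lists. For the megakaryocyte markers it did not, at 10.30 to 10.55 in WT and 9.73 to 10.22 in Rb1KO. In DKO against p107KO the megakaryocyte median was -0.15, with 6 of 22 above 0, and the endothelial median -0.032, with 7 of 16 above 0. At 24 h these medians were -0.44 and 0.21 in Rb1KO against WT. Medians in DKO against p107KO were -0.48 for neutrophil, -0.29 for macrophage and -0.32 for hepatocyte markers. Of 18 stem and progenitor markers, Mllt3 fell and the median was -0.16, with summed signals of 11479 to 13575 in WT and 8984 to 10566 in Rb1KO, which did not overlap. A sum weighs bright genes most, and the mean log2 level of these markers per array did overlap, at 8.86 to 9.05 and 8.59 to 8.88. Stromal, mast cell and lymphoid markers (19, 7 and 6 tested) had medians of -0.037, -0.0092 and -0.20, and 0 passed in limma or at an unadjusted p under 0.05. The part of cell make-up in the 67 genes was not tested.

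Rb1 lies on chromosome 14, and the genes around it were examined for a local effect. Of the 25 measured genes on each side of Rb1 in RefSeq order, 0 of 50 passed in limma, 3 at an unadjusted p under 0.05, with a median log2 difference of -0.039. Dleu2, a noncoding gene on the same chromosome but outside these 50, gave 326, 279 and 345 in WT and 634, 573, 622, 572 and 928 in Rb1KO, 1.98-fold higher (log2 0.98 ± 0.19 SE, limma adjusted p = 0.0129). Its value was highest in replicate 5. Another Dleu2 probe set differed less, at 533 ± 136 (SD, n = 3) in WT and 579 ± 104 (SD, n = 5) in Rb1KO.

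Loss of Rb1 in cells that also lacked p107 gave a second view of the same change, on 4 arrays that the first comparison does not use. DKO against p107KO at 0 h had 13 genes past the threshold (0.119%), 9 higher (0.0824%) and 4 lower (0.0366%). All 13 were among the 67: Hspa1a, Hspa1b, Cdkn1a, Zfp367, Nudt4, Otud1, Pcgf5, Glul and Dynll2 were higher, and Rb1, Tcp11l2, Prr15l and Rsad2 lower. All 67 genes kept their sign from one comparison to the other, against 58.0% of all tested genes, and for 58 the second difference was at least 50% of the first. Both comparisons share 1 estimate of the spread but no array. All 67 kept their sign when any of the 4 arrays was left out, although the count of genes past the threshold fell to 7, 6, 6 and 5 without p107KO replicate 1, p107KO replicate 2, DKO replicate 1 or DKO replicate 2.

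Hspa1b gave 477 and 236 in p107KO and 2926 and 2369 in DKO, a difference of 2.85 ± 0.35 (SE) against 2.83 ± 0.25 in Rb1KO against WT. Cdkn1a gave 202 and 149 and 673 and 650.3 (log2 1.75 ± 0.29 SE, limma adjusted p = 0.00477). Tcp11l2 gave 4963.5 and 4123.5 and 1209.9 and 1471 (log2 -1.74 ± 0.19 SE, limma adjusted p = 5.70e-05), and Prr15l 468 and 507 and 37.1 and 25.8 (log2 -3.04 ± 0.39 SE, limma adjusted p = 0.000193). So the lowest values of both genes were in the arrays lacking both pocket proteins. Trp53inp1, at 583 and 435 and 825 and 934, fell short there (log2 0.76 ± 0.20 SE, limma adjusted p = 0.344), nor did Epor (4521 and 5843.5 and 3223 and 3425, limma adjusted p = 1) or Fos (295 and 213 and 552 and 547, limma adjusted p = 0.626).

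**Figure D4:**
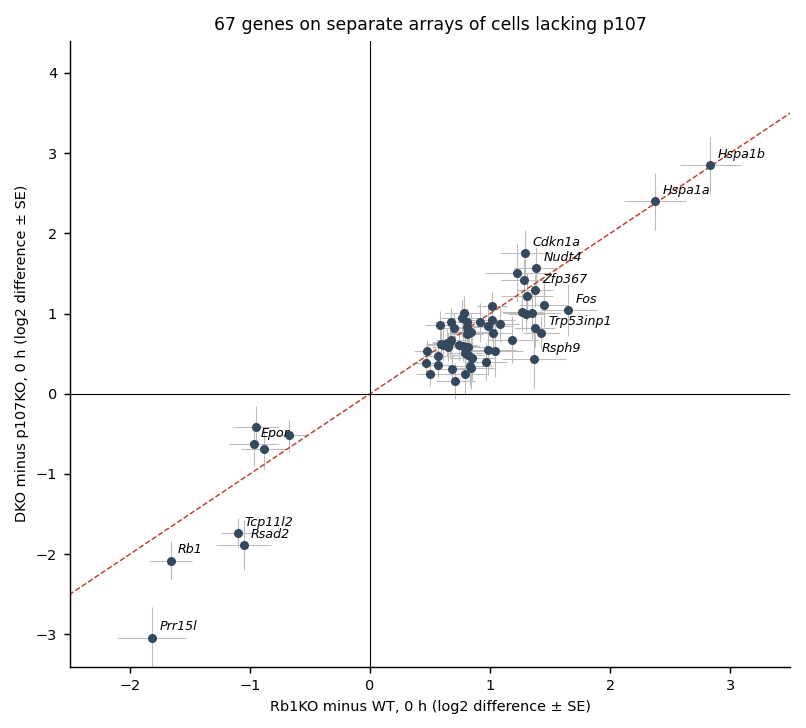
Each point is 1 of the 67 genes, with its log2 difference between Rb1KO and WT on the horizontal axis and between DKO and p107KO on the vertical axis; bars are SE and the dashed line marks equal differences. All 67 points lie to the lower left or upper right of the origin, with Hspa1b at 2.83 and 2.85 near the line and Prr15l at -1.81 and -3.04 below it.

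Whether the size of the difference depends on p107 was tested directly. In limma 0 of 10916 genes passed the test for a different response to loss of Rb1 with and without p107 (0%). At an unadjusted p under 0.05 there were 171, which is 1.57% of genes. That share is under the 0.05 that no difference anywhere would give, so these p-values may run high, and why was not tested. Of the 67 genes 4 had an unadjusted p under 0.05. Their changes ran from -1.22 to 0.54 on the log2 scale with a median SE of 0.29, so differences of this size were not resolved with 2 arrays on each side.

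The same genes were then followed into culture, on separate arrays of Rb1KO (4) and WT (2) cells kept for 24 h in medium with fetal bovine serum. Rb1KO replicate 1 at 24 h stood apart. Its median correlation with the other 24 h arrays was 0.937, the lowest of the series, against 0.957 to 0.965 for the other Rb1KO arrays at 24 h. Of the 67 genes 63 had the same sign at 24 h as at 0 h, against 61.1% of all genes, and 32 had a larger difference. The test of the change from 0 h to 24 h had 90 genes past the threshold (0.824%), 35 upward (0.321%) and 55 downward (0.504%), of which 7 were among the 67. The difference grew for Dleu2, from 0.98 to 3.97 on the log2 scale (change 2.99 ± 0.30 SE, limma adjusted p = 5.91e-06), and for Fam221a (change 1.34 ± 0.29 SE, limma adjusted p = 0.028). It shrank or was lost for Fos, from 1.65 to 0.09 (change -1.56 ± 0.37 SE, limma adjusted p = 0.045), for Trp53inp1, from 1.42 to 0.46 (limma adjusted p = 0.0499), for Siah1a, from 0.78 to -0.39 (limma adjusted p = 0.0153), and for Rsph9 (change -1.75 ± 0.42 SE, limma adjusted p = 0.0451). Mean WT signals rose from 156 at 0 h to 1777 at 24 h for Fos and from 433 to 7524 for Trp53inp1. They rose from 1390 to 5174 for Siah1a and from 24.3 to 383 for Rsph9. Rb1KO means rose as well, to 1830, 10470, 3950 and 293 in the same order.

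The Prr15l difference went from -1.81 at 0 h to 0.23 at 24 h (limma adjusted p = 0.0225). Its WT signal fell from 582, 521 and 508 at 0 h to 58.1 and 124.5 at 24 h. Rb1KO gave 135, 114, 68.2 and 123 at 24 h, so WT came down to about the level of Rb1KO. The changes of Cdkn1a (-0.51 ± 0.33 SE, limma adjusted p = 0.608), Bbc3 (-0.72 ± 0.33 SE, limma adjusted p = 0.425) and Hspa1b (1.15 ± 0.39 SE, limma adjusted p = 0.204) did not pass. The count of 90 became 49, 52 and 54 without WT 0 h replicates 1 to 3, 53 and 44 without WT 24 h replicates 1 and 2, and 65 to 110 without any single Rb1KO array.

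**Figure D5:**
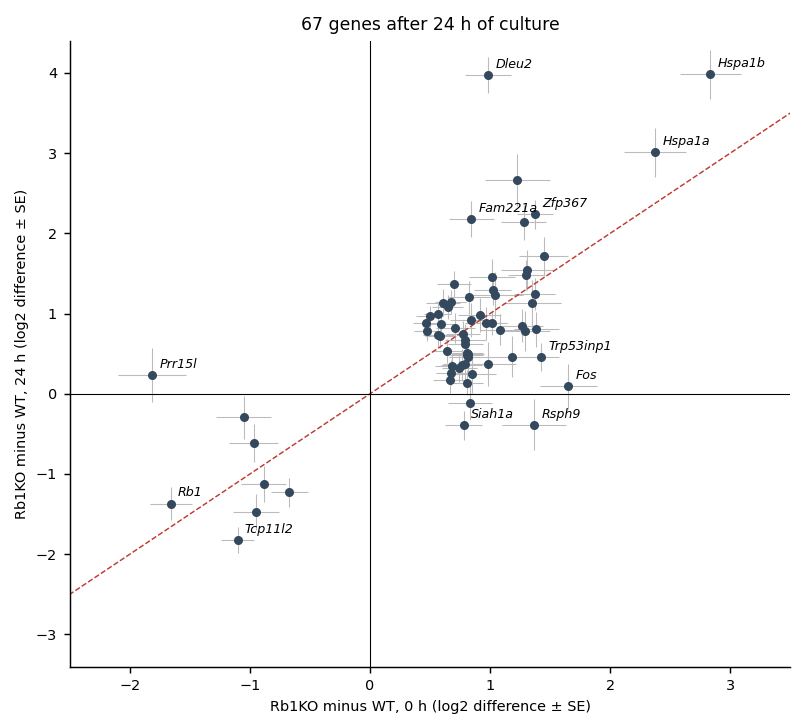
Each point is 1 of the 67 genes, with its log2 difference between Rb1KO and WT at 0 h on the horizontal axis and at 24 h on the vertical axis; bars are SE and the dashed line marks equal differences. Dleu2 stands above the line at 3.97, and Fos, Siah1a, Rsph9 and Prr15l lie near 0 or on its other side at 24 h.

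The upstream sequences of the 67 genes were searched for 3 motifs on both strands, in the 250 bases before the first RefSeq start listed for each gene (GRCm38.p6). Of the 67 genes, 48 higher and 5 lower ones had an entry. A heat shock element (GAANNTTC or TTCNNGAA) was in 8 of 48 higher genes (16.7%) and in 10.2% of the 8914 tested genes with an entry. Beside Hspa1a and Hspa1b it was found in Cdkn1a, Heca, Pdzk1ip1, Peli1, Sema4b and Zbtb2. The E2F motif (TTTCCCGC, TTTGGCGC, TTTCGCGC or TTTGCCGC) was in 3 of 48 (6.25%), namely Zfp367, Trmo and Rassf1, against 3.78%. The cyclic AMP response element TGACGTCA was in 4 of 48 (8.33%), namely Dusp1, Heca, Purb and Ywhah, against 2.7%. Among the 5 lower genes only Tcp11l2 held any of the 3, a heat shock element at each of 2 places. These matches describe letters in the windows, and the shares were not tested.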

How the data were processed

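The values are those the authors deposited: 1 intensity per probe set and array, a MAS5 signal made with GCOS 1.4, per the submitters' processing notes, on a linear scale. Trimmed means computed here, with 2.0% left out at each end, lay between 491.9 and 497.7 on the arrays; the sources used here give no scaling step. Of 45037 probe sets, 34945 had 1 gene symbol, 932 several and 9160 none, and only the first were used. Each of 18193 genes took its probe set of highest mean signal, log2(signal + 32) was formed, and the lowest 40% of genes by mean were left out, leaving 10916. The 12 group means of all 27 arrays were fitted in limma 3.58.1 (R 4.3.3) with a mean-dependent prior and Benjamini-Hochberg adjustment at 0.05. On simulated data for Rb1KO against WT at 0 h over 10916 genes, 70% of 100 genes changed 2-fold and 96% of 100 changed 4-fold were recovered, with 9 false calls. The number of arrays limits the precision, and depth has no meaning for arrays.

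The members and gene lists were chosen with earlier results of these data known. Named were every gene past the threshold, up to 6 genes per list by adjusted p, the pocket proteins, cyclin-dependent kinase inhibitors, globins and sex-linked genes, genes past the threshold beside Rb1, and up to 10 past it in either test of change. Alternatives changed the added constant, filter, scaling, probe set choice, array weights, replicate block and arrays used. Promoter windows, 1 per gene at the first start listed, came from RefSeq (GRCm38.p6).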

Additional observations from a re-analysis of the deposited data

Results flagged for a closer look

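In the 5 Rb1KO arrays at 0 h, 10 of 108 genes checked had 1 array far from the other 4, by a gap over 0.71 of the whole range. Chance gives about 1 in 20 such groups. Replicate 5 was the outlying array for 5 of them: it was highest for Ckap2 (4065), Dleu2 (928), Pgm2l1 (1693) and Sirt1 (4273) and lowest for Dusp1 (5404). Replicate 2 was highest for Larp1b (2682) and lowest for Sema4b (680.4). Replicate 3 was lowest for Tcp11l2 (1805) and stood apart in both sex-linked genes, with the highest Eif2s3y (762.5) and the lowest Xist (223).

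For 7 of the 67 genes the Rb1KO difference changed between 0 h and 24 h in limma's test of the change itself. It rose by 2.99 on the log2 scale for Dleu2, by 2.05 for Prr15l and by 1.34 for Fam221a. The change was -1.56 for Fos, -1.75 for Rsph9, -1.18 for Siah1a and -0.96 for Trp53inp1. Of these, Dleu2, Fos, Rsph9, Siah1a and Trp53inp1 were higher in Rb1KO at 0 h, as was Fam221a, and Prr15l was lower.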

How the results depend on the processing

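For Rb1KO against WT at 0 h the 67 genes became 30 with each array set to one median, 166 with array weights and 38 with a replicate block. They became 32 with only the groups compared fitted and 27 without all arrays of the series with Y-linked signal. With 1 array left out the count ranged from 26 to 61. Same-numbered WT and Rb1KO arrays had correlations of their deviations of 0.071, -0.087 and 0.15, so the numbers were not taken as pairs. DKO against p107KO gave 22 genes with quantile normalization, 118 with array weights, 20 with only its groups and 5 to 7 with 1 array left out, and 14 with the replicate block; it could not be fitted without Y-linked arrays. The change to 24 h gave 196 with array weights, 55 with only its groups, 28 without Y-linked arrays and 44 to 110 with 1 array left out, and 82 with the replicate block. The test of dependence on p107 gave 0 to 1 genes with 1 array left out (1 without DKO replicate 1) and 0 otherwise. Rbl2 turned sign, to -0.025 with one median, -0.089 with the mean over probe sets, -0.0753 with array weights, -0.17 with the replicate block and -0.0855, -0.0007 and -0.0796 without WT replicate 3, Rb1KO replicate 4 or Rb1KO replicate 5, with a range of -0.0855 to 0.0795 over the 8 arrays left out. Of 1877 values of single genes under alternatives, 1462 kept direction and side of the threshold, 383 lost the call and 25 gained it. The causes were not tested. Dim genes such as Rsph9 are limited by signal over background.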
